A study of Mus musculus with 12 samples.

Results

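The measurement described here is the difference between 2 chemical treatments of mouse embryonic fibroblasts in how gene expression changed over the first 5 days. For each gene the change from day 0 to day 5 under 6TCF was subtracted from the change over the same days under SGCF, on the log2 scale. The groups were chosen from the sample titles, and the difference uses 8 of the 12 arrays of the series, the pairs of arrays of 6TCF at day 0, 6TCF at day 5, SGCF at day 0 and SGCF at day 5. A negative difference means that a gene went down more, or up less, under SGCF than under 6TCF. In what follows "lower" and "higher" refer to this difference unless a level on the arrays is named.

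Mouse embryonic fibroblasts are primary connective-tissue cells grown from dissociated embryos. Per the labels, cells of every group were moved a day after seeding from fibroblast medium to another serum medium with basic fibroblast growth factor, and their total RNA was hybridised to Affymetrix Mouse Genome arrays. 6TCF and SGCF are code names of chemical combinations, and the sources used here name neither their components nor the mouse strain nor how many embryos lie behind each array. The day 0 arrays carry the treatment label of their arm, and no array of an untreated culture at day 5 was analysed here, so each arm is set against its own day 0. The comparison shows which early changes differed between the arms. Whether they came from the combination itself was not tested.

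Several signalling systems recur among the genes below. Insulin-like growth factors act through a receptor tyrosine kinase and are held in the matrix and medium by secreted binding proteins. Wnt proteins act through beta-catenin, which switches on its own inhibitors as well as receptors such as Lgr5. Growth factor receptors signal through the kinase ERK, which within minutes raises immediate early genes such as Egr1 and later raises feedback inhibitors of the Dusp and Sprouty families. Interferons raise a set of antiviral genes through short promoter elements. Fibroblasts also make the collagens and small leucine-rich proteoglycans of connective tissue, and fibroblast cultures from embryos can carry macrophages and mesothelial cells.

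Values are log2(intensity + 16) after quantile normalisation between all 12 arrays, which understates the change of dim genes, and errors are standard errors (SE) from the limma fit with 2 arrays in each group. Whether the arrays of a pair came from separate cultures is not labelled, so p-values may measure only technical spread. The deposited intensities were brighter in the 6TCF arm (array medians of 102.4 to 142) than in the SGCF arm (60.9 to 86.2). No processing batch is labelled, and arm and any such batch cannot be told apart. Whether the brightness gap also affects the difference in change was not tested. Correlations between the arrays of a pair ran from 0.9854 (SGCF at day 0) to 0.9965. The actin 3' minus 5' signal, a measure of RNA integrity, was 0.297 and 0.388 at day 0 and 0.761 and 0.877 at day 5 of 6TCF, against 0.276 and 0.384, then 0.481 and 0.420 under SGCF. The actin signal thus rose more under 6TCF. The Gapdh 3' minus 5' signal showed no such larger rise. It was 0.339 and 0.437, then 0.589 and 0.402 under 6TCF, and 0.015 and -0.050, then 0.168 and 0.034 under SGCF. The fit given below takes the actin signal as a covariate, but that signal differs little within pairs and more between groups. That fit therefore cannot tell RNA integrity and group apart, and the part of RNA integrity in the results was not tested. All 12 defining fibroblast markers lay above the detection filter on all 8 arrays, between 8.26 and 14.1. Of the defining markers measured for other cell types, 6 of 13 for macrophages, 2 of 2 for mesothelium, 2 of 4 for skeletal muscle, 1 of 4 for keratinocytes, 1 of 7 for endothelium, 1 of 4 for neurons and 0 of 3 for red cells lay above it on all 8. Those below it on all 8 were the endothelial Pecam1, Tek and Tie1, the haemoglobin gene Hba-a1 and the neuronal Rbfox3 and Dcx.

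Of 10674 genes tested, 958 had a called difference (8.98%, limma, Benjamini-Hochberg adjusted p under 0.05). Of these, 311 were higher (2.91%) and 647 lower (6.06%), and a difference of at least 2-fold was called for 137 higher genes (1.28%) and 407 lower genes (3.81%). The median difference of all genes was 0.0139. In 130 of these 544 genes at least 1 group mean lay below the filter of 5.25, where the size of a difference is uncertain. Every one of the 544 kept its sign in all 16 ways of taking 1 array from each of the 4 groups. These genes were selected from the same arrays, which makes this likely, so it is no separate support. The higher genes made up 32.5% of the calls, and 18.4% without normalisation between arrays (119 higher and 529 lower). The count of calls was 598 without 6TCF day 0 replicate 1 and 566 without 6TCF day 0 replicate 2, where 157 and 152 were higher and 441 and 414 lower. The higher calls numbered 571 without SGCF day 0 replicate 1, 205 without SGCF day 5 replicate 1 and 201 without SGCF day 5 replicate 2. With the actin 3' minus 5' signal as a covariate, 76 genes were called, 14 higher and 62 lower.

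The most common pattern among the lower genes was a rise under 6TCF with no call under SGCF. Within the arms, 25.5% of all genes were called between day 0 and day 5 of SGCF and 27.7% between the same days of 6TCF. Of the 407 lower genes, 148 had this pattern, led by Wnt4, Saa3 and Calb1. Another 74 rose under 6TCF and fell under SGCF, led by Lgr5, Igfbp5 and Tgm2, and 74 fell under SGCF with no call under 6TCF, led by Adam12, Csf1r and Srgn. A further 55 rose in both arms, less under SGCF, and 55 fell in both, more under SGCF. The guidance gene Slit3 was the 1 lower gene with no call in either arm.

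**Figure D1:**
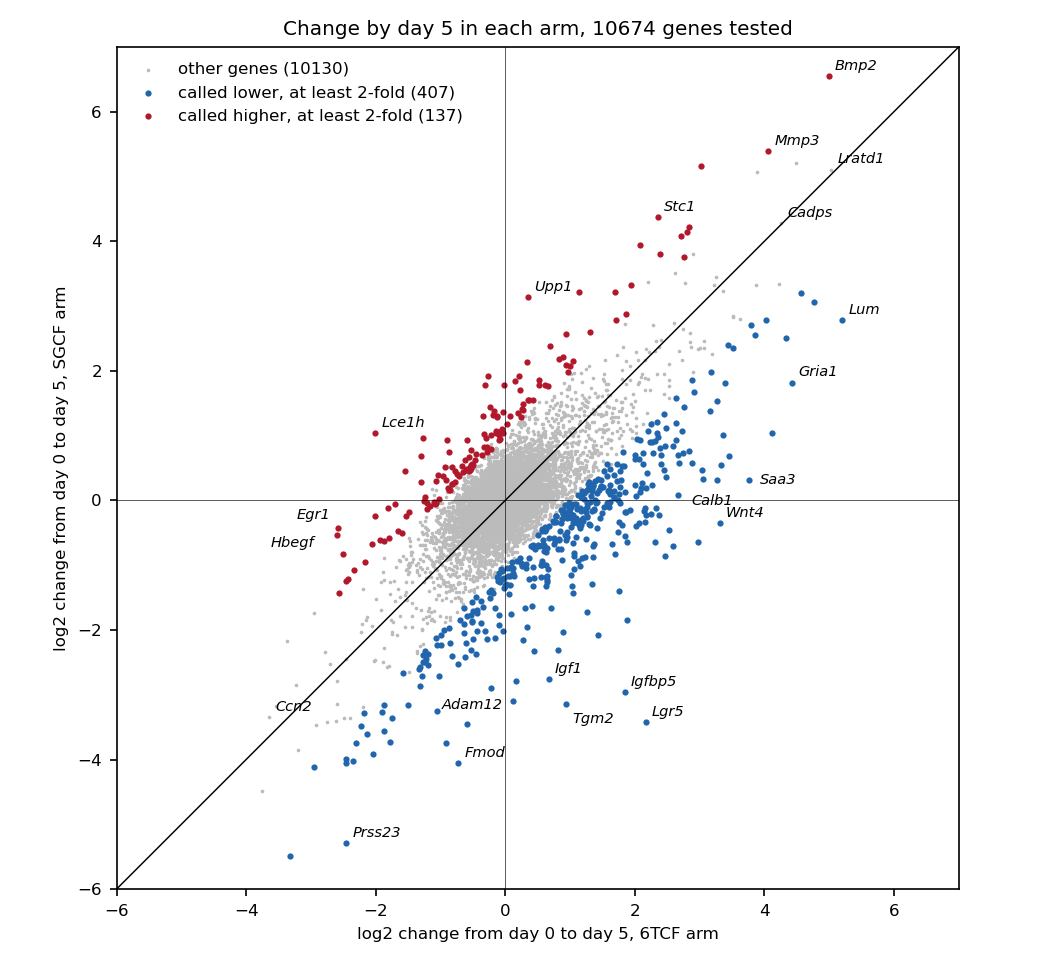
Log2 change from day 0 to day 5 in the 6TCF arm (horizontal) and in the SGCF arm (vertical), 1 point per gene for the 10674 genes tested, with the line of equal change. Blue points are the 407 genes called lower by at least 2-fold and red points the 137 called higher; blue points reach farther from the line than red ones, with Lgr5 and Igfbp5 the farthest below it.

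Among the 137 higher genes, 41 rose under SGCF with no call under 6TCF (Upp1, Esm1 and Elavl4 were the largest) and 37 fell under 6TCF with no call under SGCF (Egr1, Hbegf and Fxyd5). Another 29 rose in both arms, more under SGCF (Nptx1, Mcpt8 and Stc1), 18 rose under SGCF and fell under 6TCF (Lce1h, Bdnf and Ptgs2), and 10 fell in both, less under SGCF (Tinagl1, Slc6a15 and Nox4). The remaining 2, Plscr1 and Cacna2d1, had no call in either arm. In all, 92 genes changed in opposite directions with a called difference of at least 2-fold.

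Lgr5, the R-spondin receptor that marks stem cells of several epithelia, had the largest fitted difference. Its level was 6.18 and 5.74 on the day 0 arrays of 6TCF and 7.94 and 8.33 at day 5, and it went from 8.69 and 8.0 to 4.84 and 5.00 under SGCF. The arms thus crossed, with SGCF above 6TCF on both arrays at day 0 and below it on both at day 5. Both SGCF arrays of day 5 lay below the detection filter of 5.25, so the size of the change there is not exact. The fitted difference was -5.60 ± 0.31 (adjusted p = 2.49e-06), made of a rise of 2.17 ± 0.22 under 6TCF and a change of -3.43 ± 0.22 under SGCF.

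Igfbp5, a secreted binding protein of insulin-like growth factors that sits in the matrix, moved in the same manner. It stood at 10.88 and 10.57, then 12.51 and 12.63 under 6TCF, and at 12.04 and 11.34, then 8.50 and 8.96 under SGCF. At day 5 its levels in the 2 arms did not come near each other, and the difference in change was -4.81 ± 0.30 (adjusted p = 4.04e-06). Tgm2, an enzyme that crosslinks matrix proteins, read 9.70 and 9.81, then 10.71 and 10.69 under 6TCF, and 9.46 and 8.96, then 6.22 and 5.91 under SGCF. SGCF was already somewhat below 6TCF at day 0 (-0.55 ± 0.16) and far below it at day 5 (-4.63 ± 0.16). The difference was -4.09 ± 0.23, and all 6 of its probe sets had the same sign, although the one used is of a type that may cross-hybridise, as are those of Fmod and Gbp2 below.

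Wnt4, a secreted Wnt ligand, rose in the 6TCF arm, from 7.18 and 6.94 to 10.39 and 10.34. Under SGCF it stood at 7.54 and 7.30 at day 0 and at 7.17 and 6.96 at day 5 and stayed within the range of the 4 day 0 arrays. The difference was -3.66 ± 0.25 (adjusted p = 5.26e-06). Calb1, a calcium-buffering protein of neurons and kidney, behaved likewise from a floor level: 4.56 and 4.55 at day 0 and 7.75 and 7.89 at day 5 of 6TCF, against 4.53 and 4.60, then 4.87 and 4.90 under SGCF. Its difference of -2.95 ± 0.16 rested on a rise in 1 arm of a gene that all 4 day 0 arrays read close to background.

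Other genes among the largest lower differences had varied roles. Adamts15, a secreted metalloprotease that cuts proteoglycans, differed by -3.62 ± 0.26 and rose by 2.97 ± 0.18 under 6TCF. Lpl, the lipase that frees fatty acids from lipoproteins, differed by -3.51 ± 0.23, with a rise of 1.43 ± 0.16 under 6TCF and a change of -2.08 ± 0.16 under SGCF. Adam12, a membrane metalloprotease of mesenchymal cells, read 9.13 to 9.47 on all 4 arrays of 6TCF and went from 9.47 and 8.94 to 6.01 and 6.21 under SGCF, so that its difference of -3.21 ± 0.24 came from the SGCF arm. Fndc1, a fibronectin-domain protein, differed by -3.32 ± 0.25, the LIM-domain gene Crip1 by -3.29 ± 0.19, and Mest, an imprinted gene of fetal tissue, by -3.15 ± 0.28. Egfl6, a secreted EGF-domain protein, and Ecrg4, a secreted peptide precursor, are given with the day 0 levels below.

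**Figure D2:**
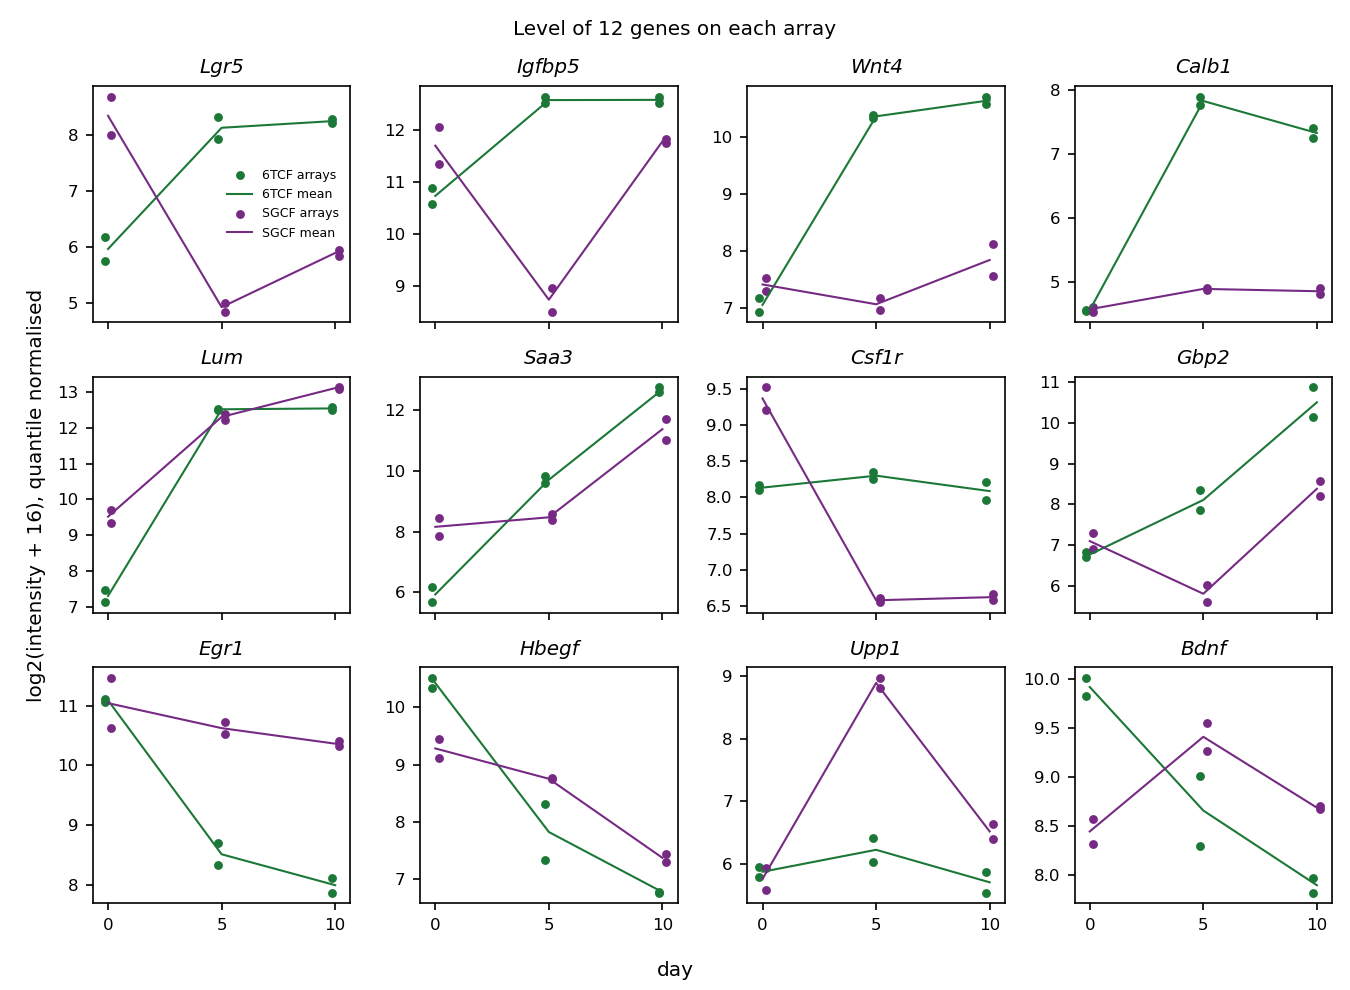
Level of 12 genes as log2(intensity + 16) on every array (points) against the day, with the mean of each pair of arrays joined by lines; green is 6TCF and purple SGCF, and the vertical axes differ between panels and do not start at 0. Lgr5, Igfbp5 and Bdnf cross between day 0 and day 5, Wnt4 and Calb1 rise in the 6TCF arm, and Upp1 rises in the SGCF arm.

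The largest higher difference belonged to Lce1h, a gene of the cornified envelope cluster that is read here by 1 probe set marked as able to cross-hybridise. It read 9.67 and 9.74, then 8.14 and 7.26 under 6TCF, and 8.62 and 8.85, then 9.84 and 9.71 under SGCF. The order of the arms was reversed at day 5, and the difference was 3.04 ± 0.33 (adjusted p = 0.000158). Upp1, the uridine phosphorylase, stood at 5.79 and 5.96, then 6.41 and 6.04 under 6TCF, and went from 5.58 and 5.93 to 8.82 and 8.98 under SGCF. It differed by 2.79 ± 0.25 (adjusted p = 3.73e-05), the day 0 arrays of the arms overlapping and those of day 5 not.

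Bdnf, the brain-derived neurotrophic factor that fibroblasts also make, fell in 1 arm and rose in the other. It read 9.83 and 10.01, then 9.01 and 8.30 under 6TCF, and 8.57 and 8.31, then 9.27 and 9.55 under SGCF. The difference was 2.23 ± 0.29, and SGCF stood below 6TCF at day 0 and above it at day 5. Ptgs2, the inducible cyclooxygenase, shared this pattern, with 11.86 and 11.98, then 11.46 and 10.57 under 6TCF and 10.84 and 10.60, then 11.66 and 11.64 under SGCF. Its difference was 1.83 ± 0.37.

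The remaining genes of the 15 largest higher differences included secreted factors and proteases. Esm1, a proteoglycan of activated endothelium, rose by 1.93 ± 0.26 under SGCF and differed by 2.19 ± 0.36. Stc1, a secreted glycoprotein hormone, rose by 4.38 ± 0.16 under SGCF and 2.35 ± 0.16 under 6TCF, and Mmp10, a stromelysin, rose by 3.94 ± 0.22 and 2.08 ± 0.22. Mcpt8, a serine protease of basophil granules by its usual annotation, differed by 2.07 ± 0.29. Serpinb2, an inhibitor of plasminogen activators, differed by 2.00 ± 0.34, Fxyd5, a regulator of the sodium pump, by 2.00 ± 0.28, and Acsl6, a long-chain acyl-CoA synthetase, by 1.81 ± 0.23. The neuronal genes Nptx1 and Elavl4 and the ERK-linked genes Egr1 and Hbegf are described with their groups.

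Genes were also grouped by function into 42 lists, described by how many tested members were called and by the list's median, to be read beside the 6.06% of all genes called lower, the 2.91% called higher and the median of 0.0139. Counts of 1 or 2 called members often moved by 1 when a single array was left out. With the actin 3' minus 5' signal as a covariate 0 members of any list were higher, and the lower members numbered at most 5 in any list. Of 14 insulin-like growth factor system genes, 8 were lower and 0 higher, with a median of -1.05. Those called were the ligands Igf1 and Igf2 and 6 binding proteins, while the receptors Igf1r (0.08 ± 0.25), Igf2r (0.10 ± 0.33) and Insr (0.02 ± 0.19), the substrates Irs1 (-0.04 ± 0.28) and Irs2 (-0.65 ± 0.19) and the protease Pappa (-0.51 ± 0.29) were not called. With any 1 of the 8 arrays left out, 7 to 9 members were lower, and 5 were with the actin covariate.

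Igf1 itself read 7.85 and 7.86, then 8.47 and 8.58 under 6TCF, and 8.75 and 8.40, then 5.98 and 5.64 under SGCF. Both SGCF arrays lay above both 6TCF arrays at day 0 and far below them at day 5. Its difference was -3.43 ± 0.21 (adjusted p = 3.63e-06). Igfbp4 rose from 9.63 and 9.67 to 11.89 and 11.95 under 6TCF and stood at 9.51 and 9.16, then 9.41 and 9.74 under SGCF, a difference of -2.02 ± 0.22. Igfbp3, the main carrier of these growth factors in blood, rose in both arms, by 2.59 ± 0.14 under 6TCF and 0.83 ± 0.14 under SGCF. Igfbp2 (-1.69), Igfbp6 (-1.55), Igf2 (-1.15) and Igfbp7 (-0.95) completed the called members.

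Small leucine-rich proteoglycans, which bind collagen fibrils and set their spacing, were lower in 8 of 9 tested cases, with a median of -1.99. Biglycan (Bgn) was the exception, with a difference of -0.15 ± 0.26 and a fall in both arms. Fmod went from 8.02 and 7.95 to 7.40 and 7.12 under 6TCF and from 9.48 and 8.84 to 4.87 and 5.33 under SGCF, a difference of -3.33 ± 0.29. Lum rose in both arms, from 7.48 and 7.14 to 12.53 and 12.50 under 6TCF and from 9.71 and 9.33 to 12.21 and 12.39 under SGCF. For Lum SGCF stood 2.21 ± 0.15 above 6TCF at day 0, and at day 5 the gap was -0.21 ± 0.15 with no call. Its difference of -2.42 ± 0.22 thus lay almost wholly in the day 0 arrays.

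Ogn (-2.20 ± 0.33) and Aspn (-2.18 ± 0.54) fell in both arms and fell more under SGCF, and Kera rose under 6TCF (2.18 ± 0.15) with no call under SGCF. With all 4 day 0 arrays taken as 1 group, 3 members of this list were lower. At day 0, 5 of 9 were called higher in the SGCF arm, against 17.4% of all genes in either direction. This is the list in which the largest share of members was called.

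**Figure D3:**
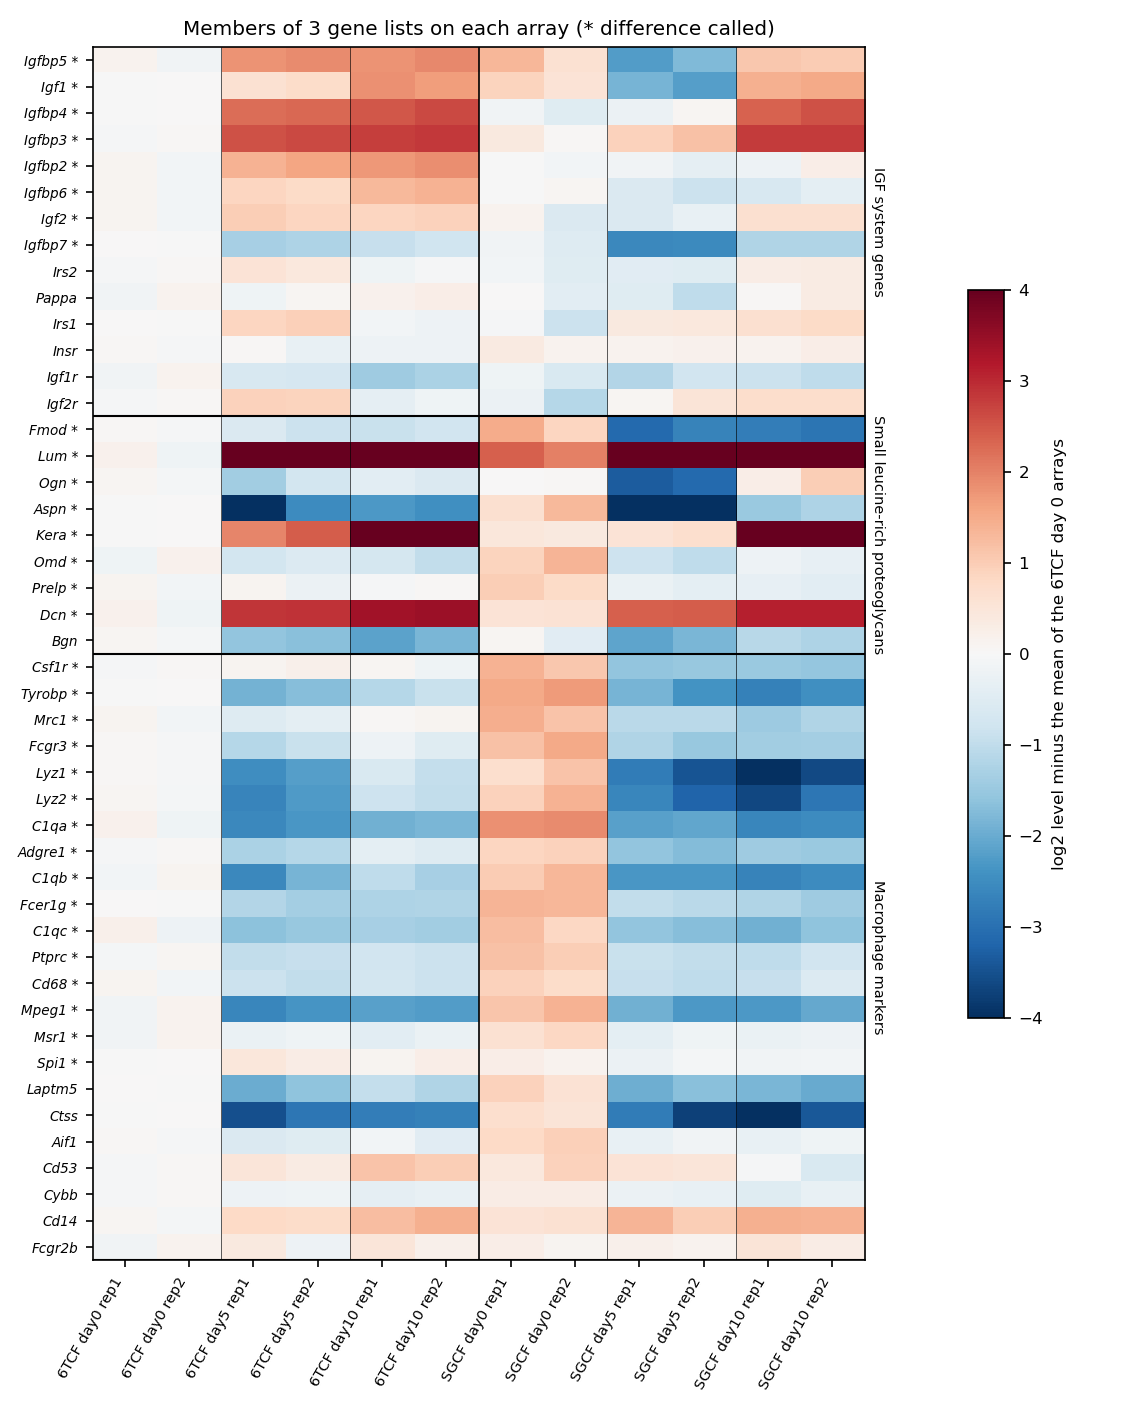
Each row is a tested member of the insulin-like growth factor system, the small leucine-rich proteoglycans or the macrophage markers, and each column an array; colour is the log2 level minus the mean of the 6TCF day 0 arrays, cut at 4 in either direction, and an asterisk marks a called difference. The SGCF day 5 columns are blue for Igfbp5, Igf1 and Fmod where the 6TCF day 5 columns are red or pale, and most macrophage rows are pale red at SGCF day 0.

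Collagen chains were lower in 9 of 26 cases and higher in 1, with a median of -0.68. Col6a2, a chain of the beaded filaments around cells, rose from 10.25 and 9.94 to 12.48 and 12.53 under 6TCF and stood at 11.86 and 11.23, then 12.03 and 12.18 under SGCF, a difference of -1.86 ± 0.28. The arms were apart at day 0 and close at day 5 for this chain. The main fibrillar chains Col1a1 (-0.58 ± 0.23, not called) and Col1a2 (-0.55 ± 0.16) differed by less, and Col15a1 (-1.51 ± 0.31) and Col14a1 (-1.22 ± 0.26) by more. The cartilage collagen Col2a1 was the member that was higher (1.26 ± 0.20). Its level was -1.55 ± 0.14 in SGCF relative to 6TCF at day 0 and -0.29 ± 0.14 at day 5, with no call. That day 5 gap is what remains with all day 0 arrays as 1 group. The lower count was 4 without either 6TCF day 0 array, without 6TCF day 5 replicate 2 or without SGCF day 5 replicate 1, and 14 without SGCF day 0 replicate 2. It was 2 with the actin covariate.

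TGF-beta and myofibroblast genes, which encode the contractile and scar-forming programme of fibroblasts, were lower in 8 of 24 cases and higher in 2, with a median of -0.29. Tgfb2, a ligand, rose from 9.29 and 9.31 to 10.92 and 11.20 under 6TCF and stood at 8.66 and 8.63, then 8.14 and 8.48 under SGCF, a difference of -2.09 ± 0.20. Tgfb1, another ligand of the same family, went the other way, with a change of -1.03 ± 0.22 under 6TCF and no call under SGCF (difference 1.43 ± 0.31). Ltbp2, which anchors latent TGF-beta to elastic fibres, differed by -1.85 ± 0.18 and the smooth muscle actin Actg2 by -1.61 ± 0.26. The classical target Ccn2 changed by -3.65 ± 0.13 under 6TCF and -3.35 ± 0.13 under SGCF and had no called difference, nor did the actin-binding gene Tagln (-0.41 ± 0.18).

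Matricellular, elastic fibre and crosslinking genes were lower in 7 of 23 cases and higher in 3. Postn, a matricellular protein of wounds, went from 11.97 and 11.88 to 11.03 and 10.99 under 6TCF and from 13.14 and 12.99 to 9.16 and 9.48 under SGCF, a difference of -2.83 ± 0.18. Its order between the arms turned over between day 0 and day 5. Tnc (1.46 ± 0.31) and Efemp1 (1.43 ± 0.24) were higher and Fbln1 (-1.29 ± 0.22) lower. The lower count of this list was 3 without 6TCF day 0 replicate 1 or SGCF day 5 replicate 1 and 4 without 6TCF day 0 replicate 2, 6TCF day 5 replicate 1 or SGCF day 5 replicate 2, and 4 without normalisation. The higher count was 5 without SGCF day 0 replicate 1.

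Matrix proteases and inhibitors were lower in 4 of 18 cases and higher in 2. Mmp13, a collagenase, rose by 1.02 ± 0.14 under 6TCF and changed by -1.15 ± 0.14 under SGCF, a difference of -2.17 ± 0.20, and Mmp11 differed by -1.62 ± 0.20. The stromelysins Mmp3 and Mmp10 were the higher ones, both rising in both arms. Mmp3 went from 6.99 and 6.89 to 11.14 and 10.86 under 6TCF and from 7.32 and 7.53 to 12.83 and 12.80 under SGCF, a difference of 1.33 ± 0.22. Of 22 integrins and laminins 3 were higher, among them Itga6 (0.91 ± 0.24) and Itga5 (0.97 ± 0.19), and 3 lower, among them the laminin chain Lama4 (-1.53 ± 0.25) and Itga8 (-1.32 ± 0.18). That higher count fell to 1 when any of 5 arrays (both of 6TCF day 0, 6TCF day 5 replicate 1 and both of SGCF day 5) was left out and without normalisation.

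Wnt/beta-catenin targets and feedback genes were lower in 9 of 21 cases and higher in 0, with a median of -0.65. Besides Lgr5 they held the secreted Wnt antagonists Sfrp2 and Sfrp1 and the transcription factor Sp5. Sfrp2 rose from 7.68 and 7.68 to 10.84 and 10.83 under 6TCF and from 7.59 and 7.19 to 8.77 and 8.76 under SGCF. The gene was thus up in both arms and by less under SGCF, with a difference of -1.78 ± 0.19. The feedback inhibitor Axin2, the most widely used readout of the pathway, rose by 3.07 ± 0.13 under 6TCF and 2.35 ± 0.13 under SGCF and differed by -0.72 ± 0.19 (adjusted p = 0.0317). Sp5 differed by -1.55 ± 0.20 and Sfrp1 by -1.26 ± 0.30, while Lef1 (0.09 ± 0.24) and Ccnd1 (0.63 ± 0.28) were not called. The lower count was 5 without either 6TCF day 0 array and 2 with the actin covariate.

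BMP and SMAD genes were divided, with 4 of 22 higher and 5 lower. The ligand Bmp2 rose in both arms, from 6.16 and 6.15 to 11.27 and 11.03 under 6TCF and from 5.73 and 4.75 to 11.59 and 11.99 under SGCF. The day 5 levels of the arms were close and the SGCF day 0 arrays lay lower and apart, and the difference was 1.56 ± 0.36 (adjusted p = 0.0181). Fst, which traps activins, was higher (1.55 ± 0.26), with a gap between the arms of -1.71 ± 0.18 at day 0 and -0.16 ± 0.18 at day 5, and the ligands Gdf10 (-2.57 ± 0.22) and Inhbb (-1.24 ± 0.24) lower. With all day 0 arrays as 1 group 0 members were higher and 6 lower. The higher count was 1 or 2 and the lower count 3 without either 6TCF day 0 array, the higher count was 2 without 6TCF day 5 replicate 2, and the counts were 2 and 3 without SGCF day 5 replicate 2.

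Immediate early and ERK feedback genes made up the list with the most higher members, 9 of 23, with 2 lower and a median of 0.61. Egr1, a zinc-finger transcription factor raised within minutes of growth factor signalling, fell from 11.06 and 11.12 to 8.70 and 8.33 under 6TCF and stood at 11.47 and 10.62, then 10.52 and 10.73 under SGCF. Only the 6TCF day 5 arrays stood apart from the other 6. The difference was 2.16 ± 0.32 (adjusted p = 0.00128).

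Hbegf, a ligand of the EGF receptor, read 10.33 and 10.51, then 8.31 and 7.34 under 6TCF, and 9.45 and 9.11, then 8.74 and 8.76 under SGCF, a difference of 2.07 ± 0.34. Its 6TCF day 5 arrays were the lowest of the 8 and also nearly 1 unit apart. Another ligand of that receptor, Ereg, rose in both arms and more under SGCF (2.38 ± 0.15 against 0.69 ± 0.15), and Dusp6, a phosphatase that switches ERK off, rose by 2.60 ± 0.20 under SGCF and 1.31 ± 0.20 under 6TCF. Fos, the classical immediate early gene, differed by -0.61 ± 0.20 and was not called, and Egr2 (-1.04) and the Sprouty gene Spry1 (-0.76) were lower. With all 4 day 0 arrays as 1 group, which tests the day 5 gap with a spread that includes the day 0 gap, 1 member was higher. The higher count was 5 without 6TCF day 0 replicate 2. In the direct comparison of the arms 9 of the 23 were lower in SGCF at day 0, and 6 were higher and 2 lower at day 5. Of all genes, 17.4% were called in either direction at day 0 and 23.6% at day 5. The higher count of the difference was 6 without normalisation and 0 with the actin covariate.

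Targets of cAMP and CREB, which share some of these genes, were higher in 3 of 18 cases (Bdnf, Stc1 and the repressor gene Crem) and lower in 1, the metabolic coactivator Ppargc1a (-1.43 ± 0.34). Crem, read by 3 probe sets of which 2 had the same sign, differed by 1.10 ± 0.25. The orphan receptor Nr4a1 (0.43 ± 0.19) and the clock gene Per1 (0.20 ± 0.20), which this pathway raises in many cells, were not called.

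Macrophage markers were lower in 16 of 23 cases and higher in 0, with a median of -1.06, and for most of them the arms differed at day 0 and not at day 5. In bulk RNA, fewer cells of a type and less RNA per cell cannot be told apart. C1qa, a complement subunit that macrophages make, went from 7.62 and 7.30 to 4.87 and 5.14 under 6TCF and from 9.29 and 9.35 to 5.29 and 5.38 under SGCF, a difference of -1.53 ± 0.20. The arms were apart at day 0, and both were near background at day 5. Summed over the 24 markers on the array, the normalised intensity was 7540 to 7920 at day 0 of 6TCF and 14400 to 17600 at day 0 of SGCF, and 2170 to 2370 and 1530 to 1930 at day 5. This linear sum gives most weight to the brightest members, which at day 0 were Lyz1 and Lyz2 (log2 levels of 10.5 to 12.9). Cd14 did not fall. It read 6.71 and 6.56, then 7.43 and 7.36 under 6TCF, and 7.19 and 7.23, then 7.99 and 7.61 under SGCF.

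In the direct comparison of the arms, 19 of the 23 markers were higher in SGCF at day 0, where 17.4% of all genes were called in either direction, and 5 were lower and 0 higher at day 5. Csf1r, the receptor for the macrophage growth factor, was 1 of these, at 8.10 and 8.17, then 8.25 and 8.34 under 6TCF and 9.52 and 9.21, then 6.56 and 6.61 under SGCF. It did not change under 6TCF by the test, and its difference was -2.95 ± 0.19 (adjusted p = 4.04e-06). Tyrobp (-1.95 ± 0.25), Mrc1 (-1.92 ± 0.20) and Fcgr3 (-1.69 ± 0.23) fell in both arms, and Ctss (-0.64 ± 0.41), Laptm5 (-0.76 ± 0.25) and Cd53 (-0.55 ± 0.27) had no call. With all day 0 arrays as 1 group, which tests the day 5 gap with a spread that includes the day 0 gap, 2 members were lower. With the actin covariate 2 were lower, and without normalisation 9.

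Complement genes were lower in 6 of 14 cases, 3 of them the C1q chains counted above. The serum proteases C1s1 (-1.28 ± 0.22) and C1ra (-1.16 ± 0.23), which fibroblasts make, also were. Without 6TCF day 5 replicate 2, without SGCF day 5 replicate 2 and under each of the 3 other scalings the count was 3.

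Chemokine, cytokine and acute-phase genes were lower in 11 of 32 cases and higher in 3, with a median of -0.20. Saa3, an acute-phase protein, rose from 6.19 and 5.68 to 9.59 and 9.81 under 6TCF and stood at 7.86 and 8.45, then 8.56 and 8.37 under SGCF, a difference of -3.45 ± 0.35. The SGCF arrays were the higher ones at day 0 and the lower ones at day 5. Ccl8, a monocyte chemokine, rose in both arms (4.13 ± 0.22 under 6TCF and 1.04 ± 0.22 under SGCF). Cxcl5, a neutrophil chemokine, rose under 6TCF and fell under SGCF (difference -3.00 ± 0.49), and Cxcl14 fell in both (-2.85 ± 0.25). With all day 0 arrays as 1 group 5 members were lower, and with the actin covariate 0. At day 0, 16 of the 32 were called higher and 4 lower in SGCF, against 17.4% of all genes in either direction. The macrophage signal described above moved in the same arrays, and its part in these chemokines was not tested.

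Interferon-stimulated genes were lower in 9 of 25 cases and higher in 2, with a median of -0.45. Gbp2, a guanylate-binding protein of antimicrobial defence, rose from 6.84 and 6.70 to 7.87 and 8.34 under 6TCF and went from 6.90 and 7.30 to 5.61 and 6.02 under SGCF. The day 0 arrays of the arms lay next to each other with no called gap, those of day 5 far apart, and the difference was -2.63 ± 0.36 (adjusted p = 0.00069). Gbp3 (-2.34 ± 0.52), Bst2, which tethers budding viruses (-1.73 ± 0.21), and the immunity-related GTPase Iigp1 (-1.50 ± 0.26) were also lower, and Ifitm1, an interferon-induced membrane protein outside the list, differed by -2.79 ± 0.19. With all 4 day 0 arrays as 1 group, which tests the day 5 gap with a spread that includes the day 0 gap, 4 members were higher and 2 lower. In the direct comparison of the arms 10 of the 25 were higher and 0 lower in SGCF at day 0. At day 5, 5 were higher and 8 lower. Of all genes, 17.4% were called in either direction at day 0 and 23.6% at day 5. Without 6TCF day 0 replicate 2 the lower count was 5, and 0 with the actin covariate.

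Promoters of 4 of the lower interferon-stimulated genes are shown because they carry the short elements through which interferons act, in RefSeq sequence of build GRCm38.p6. Igtp (-1.42 ± 0.27) and Irf1 (-1.39 ± 0.18) were chosen for this after their values were seen. Each line is the 250 bases before an annotated transcript start, 5′ to 3′ on the gene's strand, which is the plus strand for all 4, with matches in capitals. For Gbp3 and Irf1, which have 2 annotated starts, the window shown is one with a match.
Gbp2, chr3:142620413-142620662: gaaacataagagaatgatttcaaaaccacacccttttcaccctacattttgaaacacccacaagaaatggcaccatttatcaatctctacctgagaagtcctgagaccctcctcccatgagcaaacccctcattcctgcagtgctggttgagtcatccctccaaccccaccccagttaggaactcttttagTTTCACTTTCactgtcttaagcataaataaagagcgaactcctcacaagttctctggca
Gbp3, chr3:142559794-142560043: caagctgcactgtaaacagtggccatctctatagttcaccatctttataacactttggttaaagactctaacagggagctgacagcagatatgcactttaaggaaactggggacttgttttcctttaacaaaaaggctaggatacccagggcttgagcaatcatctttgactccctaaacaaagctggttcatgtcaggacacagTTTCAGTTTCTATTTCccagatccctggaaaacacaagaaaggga
Igtp, chr11:58199306-58199555: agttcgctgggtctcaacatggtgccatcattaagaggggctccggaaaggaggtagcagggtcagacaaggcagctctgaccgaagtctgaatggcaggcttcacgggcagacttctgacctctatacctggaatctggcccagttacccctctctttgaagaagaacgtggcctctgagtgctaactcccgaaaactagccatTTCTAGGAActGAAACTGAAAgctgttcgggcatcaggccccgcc
Irf1, chr11:53769764-53770013: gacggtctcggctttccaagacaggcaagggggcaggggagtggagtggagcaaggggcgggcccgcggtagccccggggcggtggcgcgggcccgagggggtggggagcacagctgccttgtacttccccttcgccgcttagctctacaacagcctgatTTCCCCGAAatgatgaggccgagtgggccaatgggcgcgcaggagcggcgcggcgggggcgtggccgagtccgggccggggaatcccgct

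The 2 motifs searched, on both strands, were the interferon-stimulated response element core GAAANNGAAA and the gamma-activated sequence TTCNNNGAA. The first begins 59 bases before the start in Gbp2, 45 and 39 bases before it in Gbp3 as overlapping matches, and 34 bases before it in Igtp. The second begins 45 bases before the start in Igtp and 90 bases before it in Irf1. Of 27025 genes in the promoter table, 3.46% held the first motif and 8.13% the second in this window. Of 21 tested list members found there, 10 held the first and 6 the second, and among 8 of those called lower the counts were 5 and 4. A match describes the letters and does not show that a factor was bound.

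Mesothelial genes were lower in 8 of 13 cases and higher in 0, with a median of -1.37. Podxl, a sialomucin of mesothelium and other surface layers, rose from 6.54 and 6.32 to 9.81 and 9.82 under 6TCF and from 5.18 and 5.45 to 7.17 and 7.07 under SGCF, a difference of -1.58 ± 0.40. Its 2 arms did not overlap on either day. Krt18 rose more under 6TCF (2.13 ± 0.18) than under SGCF (0.56 ± 0.18), and Krt19 rose by 0.94 ± 0.14 under 6TCF and changed by -0.62 ± 0.14 under SGCF. Crip1, the largest of the list, is given above.

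The arms already differed in this list at day 0, where 9 of 13 members were lower and 1 higher in SGCF, and at day 5 12 of 13 were lower, against 23.6% of all genes called in either direction on that day. The defining markers Upk3b (-0.85 ± 0.29) and Msln (0.65 ± 0.20) and the mesothelial transcription factor gene Bnc1 (-0.23 ± 0.22) had no called difference in change, and their levels in the SGCF arm were below those of 6TCF on every array of both days. Summed over the 13 genes, the intensity was 3340 to 3720 at day 0 and 11700 to 11800 at day 5 of 6TCF, and 2250 to 2430, then 1940 to 2190 under SGCF.

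Epithelial genes, which share keratins with that list, were lower in 6 of 21 cases and higher in 2. Krt7 read 7.85 and 7.82, then 8.32 and 8.47 under 6TCF and 6.53 and 6.48, then 5.78 and 5.28 under SGCF, a difference of -1.54 ± 0.21 on top of a gap at day 0. Krt8 differed by -1.37 ± 0.37. Keratinocyte markers had 0 of 12 called.

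Fibroblast identity genes were lower in 7 of 25 cases and higher in 2. The growth factor receptor Pdgfra rose from 9.94 and 9.70 to 11.99 and 12.03 under 6TCF and stood at 10.67 and 9.91, then 10.62 and 10.79 under SGCF, a difference of -1.77 ± 0.28. Thy1 differed by -1.20 ± 0.20 and the transcription factor Tcf21 by -0.97 ± 0.22, whereas the surface glycoprotein Cd34 was higher (1.53 ± 0.19). Prrx1 (-0.16 ± 0.16), Twist2 (-0.02 ± 0.23) and Vim (0.22 ± 0.21) had no call. The lower count was 2 to 4 when either 6TCF day 0 array, 6TCF day 5 replicate 2 or either SGCF day 5 array was left out, and 4 without normalisation. Pericyte and smooth muscle markers were lower in 4 of 11 cases, among them Kcnj8 (-1.66 ± 0.21) and Mcam (-1.22 ± 0.19), and higher in 1, the signalling regulator Rgs5 (1.42 ± 0.33).

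Neuronal genes were divided, with 5 of 27 higher and 3 lower. Nptx1, a pentraxin that gathers glutamate receptors, rose from 6.42 and 6.23 to 9.66 and 9.05 under 6TCF and from 5.38 and 5.34 to 10.49 and 10.54 under SGCF, a difference of 2.13 ± 0.45. SGCF was below at day 0 and above at day 5. Elavl4, an RNA-binding protein of neurons, rose by 1.78 ± 0.20 under SGCF with no call under 6TCF. The glutamate receptor subunit Gria1 went the other way, from 4.64 and 4.64 to 8.85 and 9.30 under 6TCF and from 5.05 and 5.01 to 6.81 and 6.88 under SGCF (-2.61 ± 0.21).

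The neuron-type tubulin gene Tubb3 was lower as well (-1.30 ± 0.35), and the neurofilament gene Nefl, up in both arms, had no called difference (1.18 ± 0.56). The higher count was 3 without either 6TCF day 0 array or SGCF day 5 replicate 1 and 2 without 6TCF day 5 replicate 2. Neural stem, glial and neural crest genes had 3 of 23 higher and 3 lower, with the brain lipid-binding gene Fabp7 (1.09 ± 0.28) and Tfap2a (0.90 ± 0.24) up and Mbp (-1.46 ± 0.16) and Hes1 (-0.99 ± 0.18) down. The gap of Fabp7 between the arms was -1.32 ± 0.20 at day 0 and -0.22 ± 0.20 at day 5. The higher count was 0 or 1 with any 1 of the 8 arrays left out. Sox2, a neural progenitor gene that rose in both arms, differed by -0.27 ± 0.31 and was not called.

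Growth arrest and cyclin-dependent kinase inhibitor genes were lower in 6 of 18 cases and higher in 0, with a median of -0.05. Cdkn1c, the imprinted inhibitor p57, rose from 9.53 and 9.49 to 11.50 and 11.56 under 6TCF and stood between 9.51 and 9.66 on all 4 SGCF arrays. Its difference was -1.95 ± 0.16 (adjusted p = 2e-05), and it rested on the 6TCF arm. Gadd45g (-1.81 ± 0.17), the TAM receptor ligand Gas6 (-1.67 ± 0.25) and Plagl1 (-1.84 ± 0.21) were lower too.

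Imprinted and fetal growth genes were lower in 6 of 18 cases and higher in 1. Dlk1, a Notch-like protein of fetal mesenchyme, rose by 1.60 ± 0.16 under 6TCF with no call under SGCF (-1.44 ± 0.22), in company with Mest, Cdkn1c, Plagl1 and Igf2. Cell cycle genes were lower in 4 of 34 cases and higher in 0, with a median of -0.48, and the called ones were Nusap1 (-1.22 ± 0.20), Top2a (-0.98 ± 0.22), Mcm7 (-0.86 ± 0.17) and Bub1b (-0.71 ± 0.18). The proliferation marker Mki67 had a difference of -0.63 ± 0.34 with no call. That count was 2 without 6TCF day 0 replicate 1 or 6TCF day 5 replicate 1, 8 without SGCF day 0 replicate 2 and 2 without normalisation. It was 1 with all day 0 arrays as 1 group and 0 with the actin covariate. In the direct comparison 10 of the 34 were higher and 1 lower in SGCF at day 0, and 1 higher and 4 lower at day 5. Of all genes, 17.4% and 23.6% were called on these days. The median gap was 0.397 at day 0 and -0.076 at day 5. At day 10, 28 were lower and 0 higher, where 14.1% of all genes were lower.

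Cholesterol synthesis genes were lower in 6 of 19 cases and higher in 0, with a median of -0.48. Cyp51, the lanosterol demethylase, went from 10.48 and 10.25 to 9.62 and 9.71 under 6TCF and from 10.28 and 10.44 to 8.64 and 8.41 under SGCF, a difference of -1.14 ± 0.20. The arms started level and both fell. Ebp (-0.89 ± 0.15), Hmgcs1 (-0.88 ± 0.18, 3 of 4 probe sets with this sign) and Tm7sf2 (-0.70 ± 0.19) followed. The count was 2 without 6TCF day 0 replicate 2 and without normalisation.

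Integrated stress and unfolded protein response genes were lower in 6 of 30 cases, led by the pseudokinase Trib3 (-0.99 ± 0.25), the chaperone cofactor Sdf2l1 (-0.92 ± 0.21), Herpud1 (-0.87 ± 0.17) and the serine synthesis gene Phgdh (-0.78 ± 0.18). Between 0 (without 6TCF day 0 replicate 2) and 8 members were lower when 1 array was left out, 2 of them without 6TCF day 0 replicate 1, 6TCF day 5 replicate 1 or SGCF day 5 replicate 2. Without normalisation 3 were lower, and 0 with the actin covariate. With all day 0 arrays as 1 group 3 were lower and 1 higher. In the direct comparison 8 of the 30 were higher and 1 lower in SGCF at day 0, and 1 higher and 4 lower at day 5. Of all genes, 17.4% and 23.6% were called on these days. The median gap of the list was 0.241 at day 0 and -0.145 at day 5. Antioxidant targets of the transcription factor NRF2 with the metallothioneins were higher in 2 of 24 cases and lower in 0. They were Nqo1, a quinone reductase, which rose from 9.11 and 9.84 to 10.74 and 10.78 under SGCF and stood between 8.39 and 8.74 on the 6TCF arrays (1.41 ± 0.28), and the sulfiredoxin gene Srxn1 (1.24 ± 0.18). The count was 4 without 6TCF day 5 replicate 1 or SGCF day 0 replicate 1.

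Glycolysis and hypoxia genes were divided, with 4 of 23 higher and 3 lower. The glucose transporter Slc2a3 rose more under SGCF (2.21 ± 0.15) than under 6TCF (0.89 ± 0.15), and its gap between the arms was -1.36 ± 0.15 at day 0 and -0.03 ± 0.15 at day 5. That day 5 gap (-0.034) is what remains with all day 0 arrays as 1 group. Slc2a1 rose by 0.51 ± 0.15 under SGCF and changed by -0.55 ± 0.15 under 6TCF. The aldolase Aldoc (-2.41 ± 0.27), the oxygen sensor Egln3 (-1.63 ± 0.21) and Ndrg1 (-1.39 ± 0.24) were lower. The higher count was 7 without SGCF day 0 replicate 1. Solute carriers had 3 of 26 higher, those 2 transporters and the amino acid transporter Slc6a15 (1.38 ± 0.25), and 0 lower, with 6 higher without 6TCF day 5 replicate 1.

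Retinoid genes were lower in 4 of 17 cases and higher in 0. Rdh10, which makes retinaldehyde, rose from 8.39 and 8.60 to 10.83 and 10.81 under 6TCF and stood between 8.87 and 9.0 on all SGCF arrays of both days, a difference of -2.44 ± 0.17. Cyp26a1, which breaks retinoic acid down and is itself raised by it, differed by -1.71 ± 0.19, Crabp2 by -1.16 ± 0.19 and the synthesising dehydrogenase Aldh1a2 by -0.85 ± 0.17. Guidance genes were lower in 6 of 30 cases and higher in 0, with Plxnc1 (-2.05 ± 0.32), Epha3 (-1.70 ± 0.47), Unc5c (-1.31 ± 0.28) and Slit3 (-1.26 ± 0.33). That count was 2 or 3 without either 6TCF day 0 array, without 6TCF day 5 replicate 2 and without SGCF day 5 replicate 1.

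The lists of other lineages are given by their counts, to be read beside the 8.98% of all genes called. Cardiac genes were higher in 3 of 22 cases (Hand2, Myl2 and Myl7, of which Myl7 turned to -0.35 with all day 0 arrays as 1 group) and lower in 0, with 0 higher without normalisation, 1 higher without either 6TCF day 0 array or 6TCF day 5 replicate 1, and 5 higher without SGCF day 0 replicate 2. Skeletal muscle genes were higher in 1 of 19 (Ckm, 0.57 ± 0.16), adipocyte genes higher in 1 (Fabp4, 1.00 ± 0.23) and lower in 2 of 14 (Lpl and Cebpa), and endoderm and liver genes lower in 2 of 10 (Hhex, -1.36 ± 0.25, and Foxa2, -1.01 ± 0.16). Endothelial markers had 1 of 14 higher (Emcn) and 1 lower (the phosphatase Ptprb, -1.74 ± 0.21). Hox genes were higher in 1 of 23 (Hoxa5, 0.77 ± 0.16, or -0.14 with all day 0 arrays as 1 group), with 4 without 6TCF day 5 replicate 1, 3 and 2 without SGCF day 0 replicates 1 and 2, and 0 without 6TCF day 0 replicate 1. Cartilage and bone markers were higher in 1 of 10 (Col2a1), and pluripotency genes (11 tested) and red cell markers (3 tested) had 0 called.

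**Figure D4:**
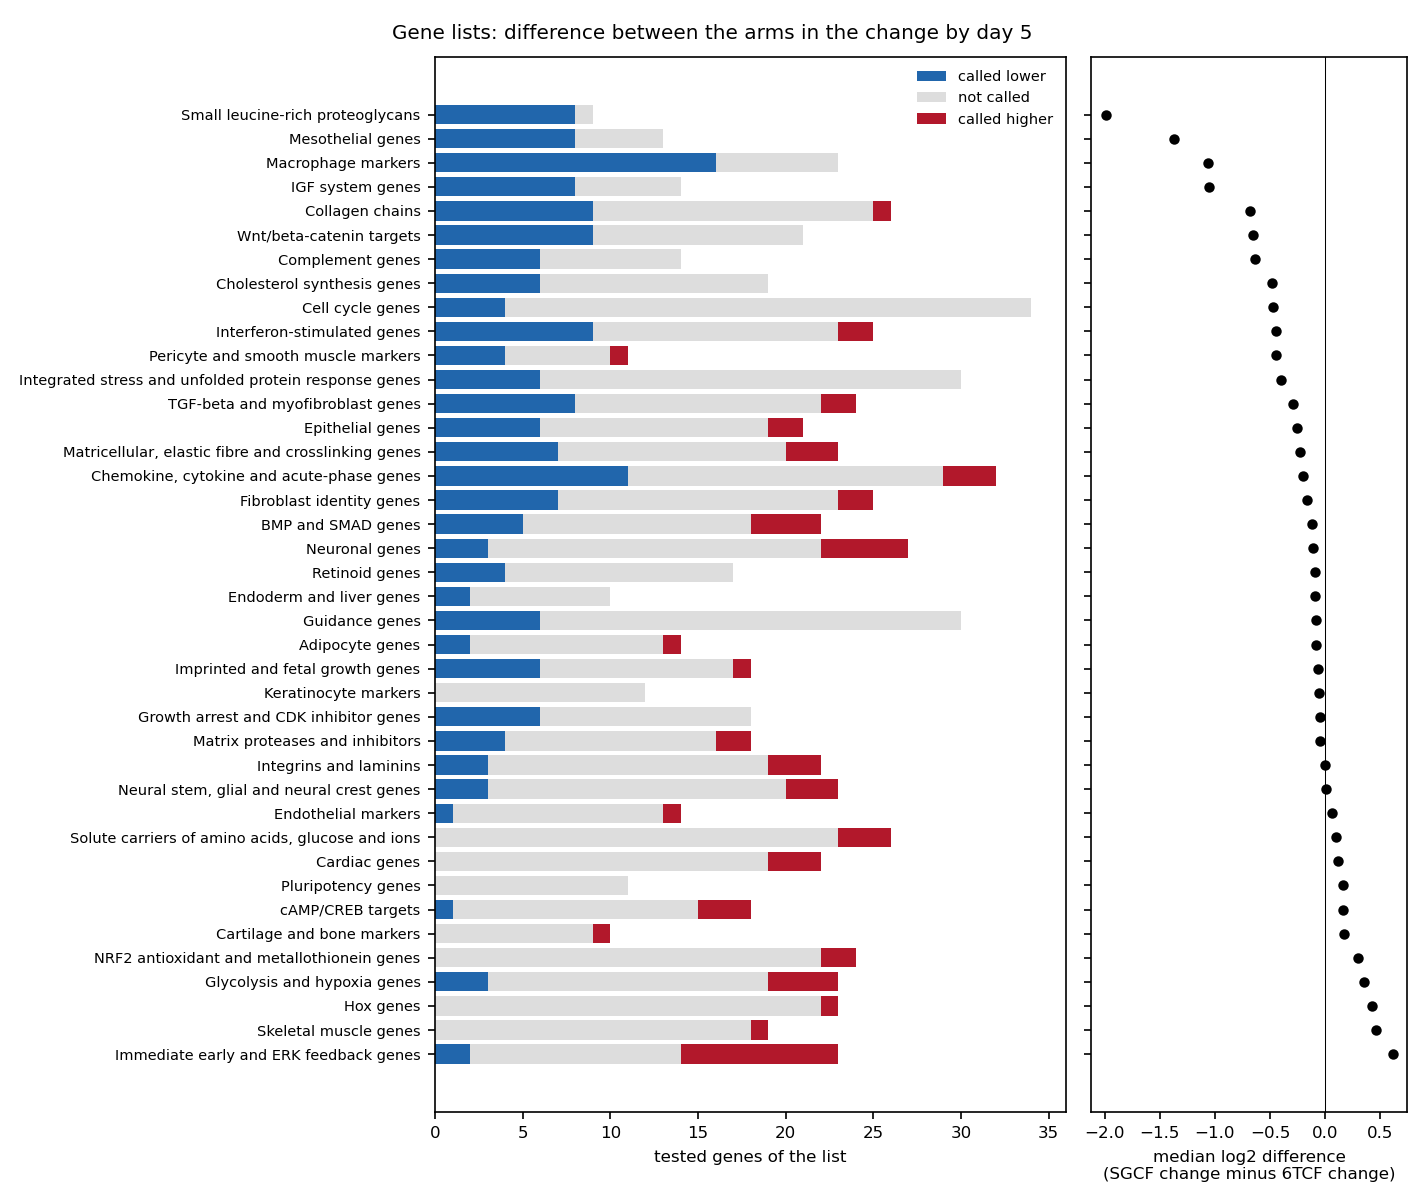
For each list with at least 5 tested genes, the bars give the number of genes called lower (blue), not called (grey) and called higher (red), and the points give the list's median log2 difference, with lists sorted by it. Small leucine-rich proteoglycans lie lowest (-1.99) and immediate early and ERK feedback genes highest (0.61).

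Xist and 3 Y-linked genes, which report the sex of the embryos in a culture, were tested, and 0 of these 4 genes had a called difference in change. Without SGCF day 0 replicate 2, 1 was higher and 1 lower. In the direct comparison of the arms 0 were called at day 0, 2 were lower in SGCF at day 5 and 1 at day 10. The median gaps on these days were -0.382, -0.449 and -0.403. Whether the arms matched in embryo sex was not tested. Xist read 7.89 to 9.33 on the 8 arrays (difference -0.66 ± 0.24) and Kdm5d 5.00 to 6.55 (-0.56 ± 0.38), and Uty (0.14 ± 0.23) and Eif2s3y (0.78 ± 0.38) had no call either.

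Because the difference is taken from each arm's own day 0, it equals the gap between the arms at day 5 minus that at day 0. At day 5, 352 of the 407 lower genes were called lower in SGCF in the direct comparison, 2 were called higher and 53 had no call, and of the 137 higher genes 95 were called higher, 0 lower and 42 had no call. Of all genes, 17.4% were called in either direction at day 0 and 23.6% at day 5. The lower and higher genes were selected on the same arrays, which makes such gaps on both days likely. Neither the day 5 calls nor the day 0 gaps below are separate support. At day 0 the median gap was 0.277 for the lower genes and -0.522 for the higher genes, against 0.0196 for all genes. A day 0 gap of opposite sign and at least 50% of the size of the difference was found for 86 lower genes (21.1%) and 51 higher genes (37.2%).

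The 6 largest of these were Egfl6, Saa3, Ecrg4, Ccl12, Srgn and Mndal. Ccl12, a monocyte chemokine, read 5.18 and 5.64, then 7.89 and 7.54 under 6TCF and 8.0 and 8.30, then 7.59 and 7.43 under SGCF, a difference of -2.94 ± 0.29. At day 5 the arms were 0.21 apart, so nearly all of its difference lay in the day 0 arrays. Egfl6 (-3.71 ± 0.39) stood at 4.70 and 4.68, then 6.17 and 6.95 under 6TCF and 6.86 and 6.76, then 4.66 and 5.28 under SGCF, so its arms exchanged places. Ecrg4 (-3.11 ± 0.26), the granule proteoglycan gene Srgn (-2.76 ± 0.43) and the interferon-inducible gene Mndal (-2.52 ± 0.34) had day 0 gaps of 1.73, 1.82 and 1.51. Among the higher genes, Tinagl1 (1.68 ± 0.25) had a gap of -1.79 at day 0 and -0.12 at day 5.

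**Figure D5:**
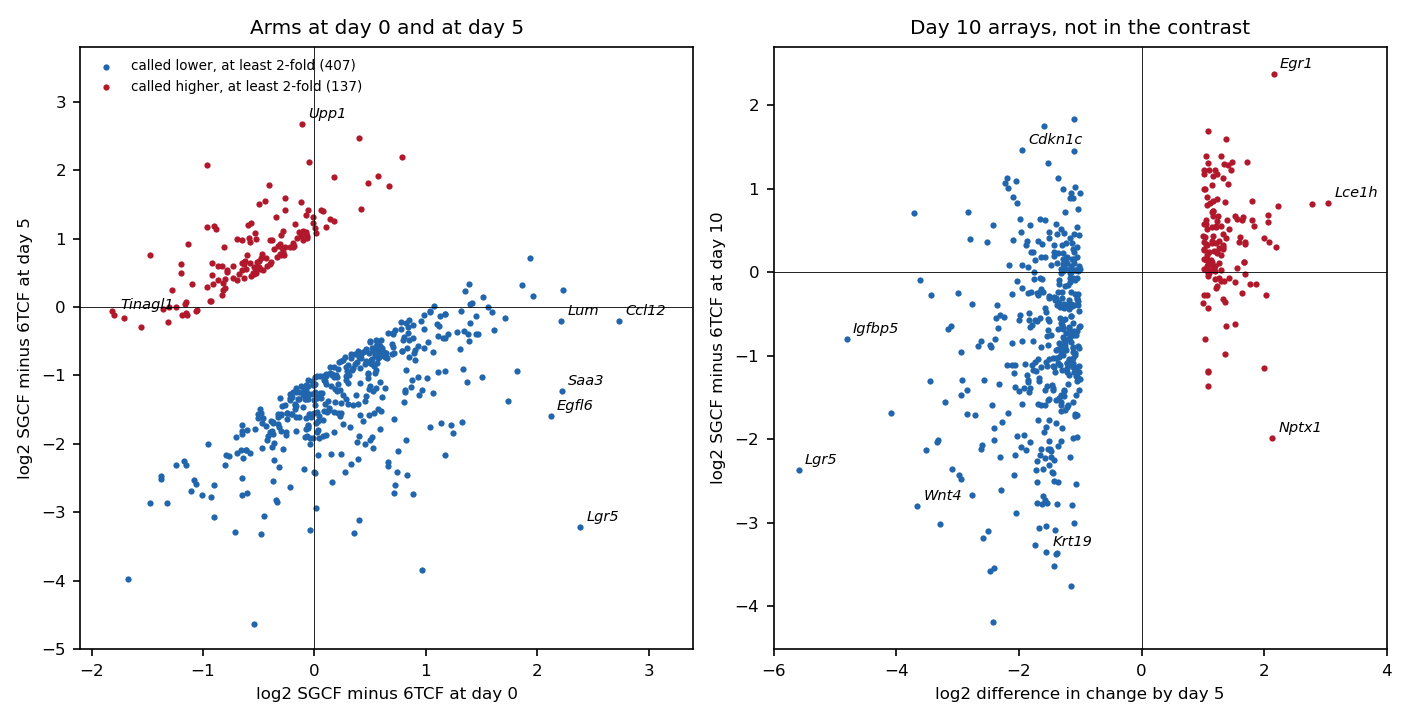
Left, the log2 gap between the arms (SGCF minus 6TCF) at day 5 against that at day 0, for the 407 lower (blue) and 137 higher (red) genes; right, the gap on the day 10 arrays against the difference in change by day 5. Genes such as Ccl12, Lum and Tinagl1 lie near 0 on the vertical axis at day 5, and at day 10 most blue points lie below 0.

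The 4 day 10 arrays do not enter the contrast, but they share its normalisation, filter and residual spread, and the fit on the 8 arrays of days 0 and 5 called 758 genes. They read the same genes at a later day, without a new day 0. Of the 407 lower genes, 255 (62.7%) were also called lower in SGCF at day 10, where 14.1% of all genes were, 33 were called higher and 119 had no call. Their median gap was -0.819, against 0.0371 for all genes. Of the 137 higher genes, 52 (38.0%) were called higher at day 10, where 13.4% of all genes were, 9 were called lower and 76 had no call, with a median gap of 0.357. The gap at day 10 was -2.36 ± 0.22 for Lgr5, -2.80 ± 0.18 for Wnt4, -3.35 ± 0.14 for Krt19 and 2.37 ± 0.23 for Egr1.

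Other genes had closed or turned by then. The gap of Igfbp5 went from -3.84 ± 0.21 at day 5 to -0.80 ± 0.21 at day 10 and that of Igf1 from -2.72 ± 0.15 to -0.28 ± 0.15, which was not called. Cdkn1c (-1.88 ± 0.11, then 1.46 ± 0.11) and Tgfb2 (-2.75 ± 0.14, then 0.90 ± 0.14) turned from lower to higher in SGCF, and Nptx1 (1.17 ± 0.32, then -1.98 ± 0.32) from higher to lower. The small leucine-rich proteoglycans were called lower at day 10 in 2 of 9 cases and higher in 4. TGF-beta and myofibroblast genes were lower in 1 of 24 cases and higher in 8. Matricellular, elastic fibre and crosslinking genes were lower in 1 of 23 and higher in 13. Mesothelial genes were lower in 12 of 13 cases and higher in 0, and Wnt/beta-catenin targets lower in 11 of 21 and higher in 1.

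Some large changes were of like size in both arms. Of 19 genes that changed at least 8-fold in the same direction in both, 7 had a called difference, and 7 others had a 95% interval of the difference within 1 log2 unit of 0. Lratd1 rose by 5.03 ± 0.13 under 6TCF and 5.11 ± 0.13 under SGCF, with an interval of -0.32 to 0.47. Cadps, a factor of dense-core vesicle release, rose by 4.25 ± 0.13 and 4.29 ± 0.13 (-0.35 to 0.42), and the adhesion molecule gene Nrcam (-0.24 to 0.46), the heparan sulfate sulfotransferase gene Hs3st1 (-0.17 to 0.55) and the TNF family ligand Tnfsf9 (-0.78 to 0.53) rose alike too. Ccn2 (-0.10 to 0.71) and the procollagen protease gene Tll1 (-0.18 to 0.92) fell in both arms.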

How the data were processed

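The authors' deposited values are intensities, 1 per probe set and array, on a linear scale. RMA, limma and MAS5 are named per the submitters' processing notes, with no role or version, so background correction and summary can have shaped dim values in ways not given in the sources used here. From these intensities log2(value + 16) was computed and quantile normalised between all 12 arrays. Of 22690 probe sets, 64 controls were left out and 20380 had 1 gene symbol in the platform annotation, 20351 of them matched in RefSeq. The probe set with the highest mean stood for each of 12393 genes, and 10674 genes passed a filter at the 25th percentile (log2 5.25) in at least 1 group mean. limma 3.58.1 in R 4.3.3 was fitted to 6 groups of 2 arrays (6 residual degrees of freedom) and the difference in change taken as a contrast, with Benjamini-Hochberg adjustment over all genes tested. The method was tested on simulated data with independent errors and arms equal at day 0. That setting does not cover differences between the arms in brightness, RNA integrity or starting level. The small number of arrays limits the precision.

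The comparison, its members and the gene lists were chosen with earlier results of these data known. Named genes were the 15 largest differences in each direction, up to 4 called members of each list with uncalled members where needed, up to 3 genes of each pattern, 6 genes by their day 0 gap, like changes, and Xist with Y-linked genes. Other called list members that are named (such as Axin2, Egr2, Spry1, Col1a2, Kera, Igf2 and Igfbp2) were chosen after their values were seen. Alternatives covered scaling, pseudocount, filter, probe set rule, variance model, arrays left out, replicate number, RNA integrity and a shared day 0.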

Additional observations from a re-analysis of the deposited data

Results flagged for a closer look

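The arms differed in the change by day 5 for 958 genes by the limma contrast, which tests the difference itself, and 92 genes changed in opposite directions with a called difference of at least 2-fold. Those of the named genes that fell under SGCF and rose under 6TCF had differences of -5.60 for Lgr5, -4.81 for Igfbp5, -4.09 for Tgm2, -3.71 for Egfl6, -3.62 for Adamts15, -3.51 for Lpl, -3.43 for Igf1, -3.32 for Fndc1, -3.29 for Crip1, -3.15 for Mest and -3.11 for Ecrg4. The same pattern held for Cxcl5 (-3.00), Ccl12 (-2.94), Gbp2 (-2.63), Mndal (-2.52), Mmp13 (-2.17), Bst2 (-1.73), Gas6 (-1.67), Mmp11 (-1.62), Krt19 (-1.55), Igfbp6 (-1.55), Krt7 (-1.54), Lama4 (-1.53), Igtp (-1.42), Ndrg1 (-1.39) and Irf1 (-1.39). The named genes that rose under SGCF and fell under 6TCF were Lce1h (3.04), Bdnf (2.23), Ptgs2 (1.83) and Slc2a1 (1.06).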

How the results depend on the processing

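The count of 958 called genes lay between 648 and 1098 under the other scalings, pseudocounts, filters, probe set rule, variance models and the fit on 8 arrays. With 1 array left out it lay between 566 and 1327. Higher calls (311) ran from 152 to 571 and lower calls (647) from 414 to 767 with 1 array left out. Without normalisation 119 genes were higher. With all day 0 arrays as 1 group, where the contrast is the gap between the arms at day 5, 1314 were called. Of these 488 were higher, and 565 were shared with the 958. With the actin 3' minus 5' signal as a covariate 76 genes were called, 14 higher and 62 lower; the cause was not tested. With replicate number as a replicate block 911 genes were called, and 833 with the block within each arm. Whether arrays of the same replicate number were paired is not labelled. Of 161 named called genes, 118 kept their call whichever array was left out. None changed sign then, which their selection from these arrays makes likely. With the covariate 34 kept their call, 126 lost it and Aspn turned to 0.35. With the shared day 0, which leaves the gap at day 5, 104 kept it, 48 lost it and 9 turned. The turned values are thus gaps between the arms at day 5: C1qa 0.33, Cacna2d1 -0.040, Col2a1 -0.29, Fabp7 -0.22, Fst -0.16, Hoxa5 -0.14, Myl7 -0.35, Slc2a3 -0.034 and Tinagl1 -0.12. Dim signal limits 130 of the 544 genes, which had a group mean below the filter.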
